A study of Mus musculus with 8 samples.

Results

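Mtmr9, Nrp1, Auts2, Col19a1, Fxyd1 and Muc13 are 6 genes whose signal was higher in lymphoid progenitors of E2A knockout mice. They were chosen by their measured values, as genes with a higher signal on every E2A knockout array than on both wild-type (WT) arrays, and they are the 6 genes with a positive difference among 11957 tested that passed an adjusted p of 0.05 in that contrast. The array carries 18193 genes named by a probe set of their own, and 18 probe sets name the 6 genes. Affymetrix arrays were hybridized with RNA of common lymphoid progenitors, the marrow precursors of B, T and other lymphocytes. The sort kept cells that carried FLT3 and CD127 (the IL-7 receptor chain) and excluded those with lineage markers or LY6D. E2A-KO mice (lacking E2A, the products of Tcf3) gave 4 arrays, HEB-KO mice (lacking HEB, the product of Tcf12) gave 2, and WT mice gave 2. All mice were of the C57bl/6 strain and 10 to 13 weeks old, no group received a treatment, and the labels do not name the knockout alleles. Each array held cells pooled from several marrows, so the spread is that between pools and not between animals.

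E2A and HEB are E proteins, helix-loop-helix transcription factors that bind E-box motifs in DNA as dimers. In early lymphoid cells they turn on genes of the B and T lineages, and they are also known to hold down some genes of other fates. The 6 genes act in different places. Nrp1 encodes neuropilin 1, a surface co-receptor that joins plexins in binding class 3 semaphorins and also binds VEGF. Muc13 encodes a membrane-bound mucin known from gut epithelium and from blood progenitors, and Fxyd1 encodes phospholemman, a small membrane protein that regulates the sodium pump in heart and muscle. Col19a1 encodes the chain of collagen XIX, a matrix protein of basement membrane zones. Mtmr9 encodes a myotubularin without phosphatase activity that binds active family members, among them MTMR6, and raises their activity. Auts2 encodes a nuclear protein that, in human cells and mouse brain, joins a variant Polycomb complex with PCGF3 or PCGF5.

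Start sequences were read to see which letters stand before genes that move together. RefSeq (GRCm38.p6) start windows were at hand for 4 of the 6 genes, Nrp1, Fxyd1, Col19a1 and Muc13, the last with 2 starts. The 250 bases before each start are given 5′ to 3′ on the strand of the gene, with each match to the general E-box CANNTG in capitals.
Nrp1, chr8:128358823-128359072, plus strand: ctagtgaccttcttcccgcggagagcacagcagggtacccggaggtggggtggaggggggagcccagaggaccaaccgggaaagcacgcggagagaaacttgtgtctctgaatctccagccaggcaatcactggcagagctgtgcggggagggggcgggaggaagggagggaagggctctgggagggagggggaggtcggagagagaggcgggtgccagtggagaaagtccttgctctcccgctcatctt
Fxyd1, chr7:31054854-31055103, minus strand: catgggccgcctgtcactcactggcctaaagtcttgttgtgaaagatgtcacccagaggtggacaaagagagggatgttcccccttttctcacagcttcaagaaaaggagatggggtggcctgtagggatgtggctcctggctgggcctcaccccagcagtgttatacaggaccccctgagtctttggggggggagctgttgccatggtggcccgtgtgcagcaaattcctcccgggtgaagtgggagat
Col19a1, chr1:24587438-24587687, minus strand: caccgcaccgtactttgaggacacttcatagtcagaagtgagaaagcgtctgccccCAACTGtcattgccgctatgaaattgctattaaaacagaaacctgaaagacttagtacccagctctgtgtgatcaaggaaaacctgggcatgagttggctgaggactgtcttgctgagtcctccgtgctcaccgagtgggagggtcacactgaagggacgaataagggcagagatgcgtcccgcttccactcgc
Muc13, upstream start, chr16:33793787-33794036, plus strand: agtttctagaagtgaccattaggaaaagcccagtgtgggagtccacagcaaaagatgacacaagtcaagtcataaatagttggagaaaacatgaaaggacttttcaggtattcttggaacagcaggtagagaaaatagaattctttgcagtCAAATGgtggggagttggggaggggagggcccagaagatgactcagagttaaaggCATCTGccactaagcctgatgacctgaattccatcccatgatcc
Muc13, downstream start, chr16:33794239-33794488, plus strand: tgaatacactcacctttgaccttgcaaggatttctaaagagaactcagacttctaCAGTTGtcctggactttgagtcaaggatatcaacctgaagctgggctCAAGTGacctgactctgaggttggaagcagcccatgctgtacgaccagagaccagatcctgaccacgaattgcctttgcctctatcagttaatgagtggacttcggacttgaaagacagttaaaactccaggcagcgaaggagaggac
CANNTG reads the same on both strands as a pattern. It stood in 3 of the 5 windows, against 66.2% of the 32851 windows of the same length in the table. Col19a1 held CAACTG, the upstream start of Muc13 held CAAATG and CATCTG, and the downstream start held CAGTTG and CAAGTG. The narrower motifs CAGCTG (in 13.0% of all windows) and CAGGTG, searched with its reverse complement CACCTG (17.2%), stood in none of the 5. These are counts of letters in short windows, and binding was not measured.

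The targeted genes were read first as a check of the labels. Tcf3 read 4.28, 3.71, 4.05 and 3.90 (log2 intensity) on the E2A knockout arrays, 8.57 and 8.44 on the HEB knockout arrays and 7.76 and 7.98 on the WT arrays. Tcf12 read 7.10 and 6.49 on the HEB knockout arrays, 8.52 to 8.64 on the E2A knockout arrays and 8.85 and 8.76 on the WT arrays. Each was lowest in the genotype labelled as lacking it. Flt3 (10.12 to 10.53 on E2A knockout arrays, 11.05 and 10.50 on HEB knockout, 10.47 and 10.66 on WT) was bright throughout. Il7r, which encodes the CD127 sorted for, fell in E2A knockout cells, at 8.56, 7.89, 8.73 and 9.04 on E2A knockout arrays, 10.88 and 10.50 on HEB knockout and 10.51 and 10.91 on WT (log2 difference -2.16 between E2A knockout and WT, limma adjusted p = 0.0330). A gate list (7 of 10 genes on the array) mixed genes sorted for (Flt3, Il7r) and against (Ly6d, Cd3e, Itgam) with Kit and Ptprc. It summed in linear intensity to 2645 to 3386 on E2A knockout, 4243 and 5861 on HEB knockout and 5050 and 5398 on WT arrays. Of the lineage markers, Itgam lay below the array's median signal on all 8 arrays and Cd3e read 5.06 to 5.48 over all 8, above the median. Ly6d, the protein sorted against, varied within genotypes, at 4.26 to 6.88 on E2A knockout arrays, 7.52 and 3.63 on HEB knockout and 3.53 and 7.83 on WT. Median intensity per array was 14.14 to 15.41. In RNA of sorted pools, more cells that express a gene and more RNA per cell cannot be told apart.

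Nrp1 and Muc13 encode the co-receptor and the mucin. At its brightest probe set (1418084_at), Nrp1 read 6.84, 7.85, 7.50 and 7.74 on the E2A knockout arrays, 5.37 and 6.01 on the HEB knockout arrays and 4.46 and 5.01 on the WT arrays. The 3 genotypes did not overlap, with HEB knockout between the others. The mean was 7.48 ± 0.45 (SD, n = 4) in E2A knockout, 5.69 ± 0.45 (n = 2) in HEB knockout and 4.74 ± 0.39 (n = 2) in WT cells, a 6.71-fold difference between E2A knockout and WT. Muc13 (1419387_s_at) read 7.65, 7.82, 8.22 and 8.10 on the E2A knockout arrays, 6.79 and 7.31 on HEB knockout and 6.05 and 6.41 on WT. Its genotypes stood apart in the same order, with means of 7.95 ± 0.26, 7.05 ± 0.37 and 6.23 ± 0.25 in E2A knockout, HEB knockout and WT cells.

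Fxyd1 and Col19a1 encode the pump regulator and the matrix protein. Fxyd1 (1421374_a_at) read 6.30, 6.60, 5.78 and 6.33 on the E2A knockout arrays, 5.01 and 5.07 on HEB knockout and 4.19 and 4.67 on WT. Col19a1 (1421698_a_at) read 6.20, 6.10, 6.59 and 5.91 on the E2A knockout arrays, 4.98 and 5.41 on HEB knockout and 3.97 and 4.41 on WT. Both genes were thus ordered as Nrp1 and Muc13 were, without overlap. The E2A knockout mean of Fxyd1 was 3.53-fold that of WT and that of Col19a1 was 4.03-fold.

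Mtmr9 and Auts2, the members inside the cell, had HEB knockout arrays that overlapped WT. Mtmr9 (1434676_at) read 10.08, 9.50, 9.87 and 10.27 on the E2A knockout arrays, 7.30 and 7.54 on HEB knockout and 6.25 and 7.43 on WT. The WT arrays differed from each other by more than the E2A knockout arrays did, and WT 2 lay among the HEB knockout values. Its means were 9.93 ± 0.33 in E2A knockout, 7.42 ± 0.17 in HEB knockout and 6.84 ± 0.83 in WT cells, which made 8.51-fold between E2A knockout and WT. Auts2 (1457139_at) read 8.48, 7.99, 7.47 and 8.65 on the E2A knockout arrays, 6.28 and 5.57 on HEB knockout and 5.31 and 5.65 on WT. The E2A knockout mean of Auts2 was 6.36-fold the WT mean.

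**Figure D1:**
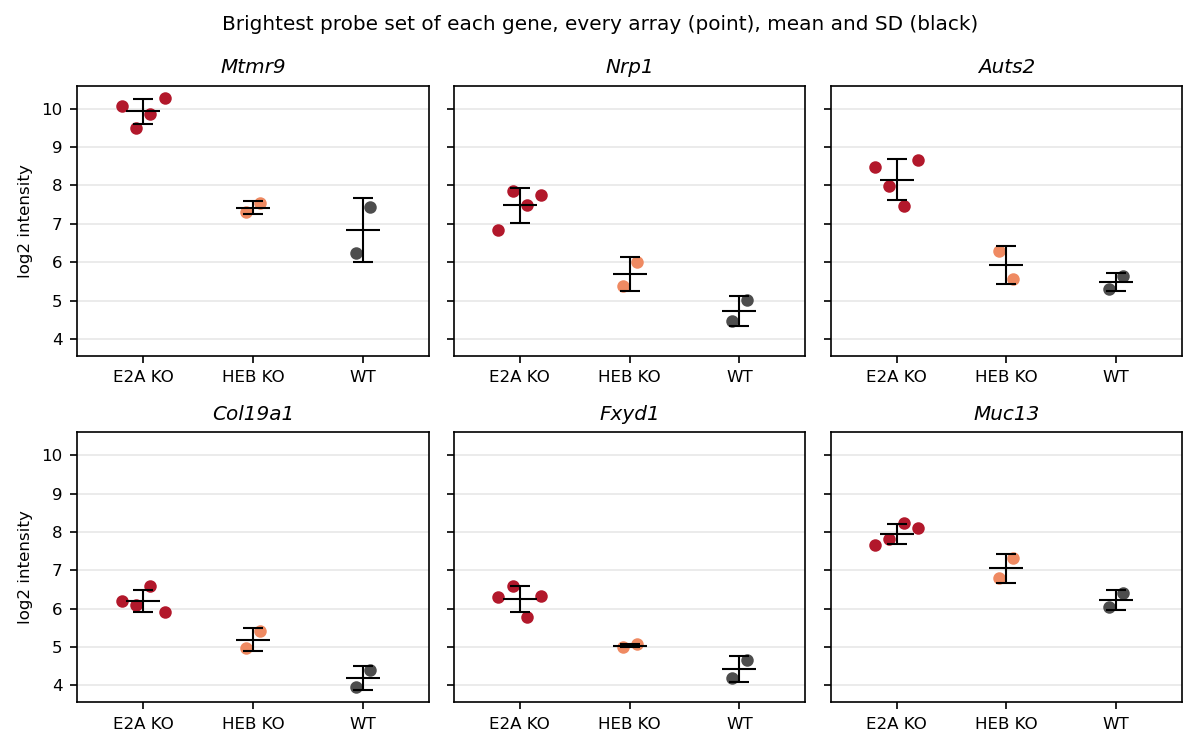
Log2 intensity (y axis) of the brightest probe set of each of the 6 genes in E2A knockout (4 arrays), HEB knockout (2) and WT (2) cells. Points are arrays, black bars are the mean and SD. All 4 E2A knockout points lie above the others in each panel, and the HEB knockout points lie clear of WT for Nrp1, Col19a1, Fxyd1 and Muc13.

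Since the E2A knockout and WT arrays chose the genes, their difference is a description. Calls of the members in this contrast, here and below, are no independent support. The brightest probe sets of all 6 lay above the array's median on all 8 arrays, so each gene entered the tested set in every genotype. Genes higher in E2A knockout cells at an adjusted p under 0.05 (limma) made up 0.0502% of the 11957 tested, and these are the 6 themselves. Genes with every E2A knockout array above both WT arrays were more common, at 9.98%. The smallest gap between the lowest E2A knockout and the highest WT array was 1.11 on the log2 scale for Fxyd1, and the widest was 2.07 for Mtmr9. Just inside the threshold stood Fxyd1 (log2 difference 1.82, SE 0.27) and Muc13 (1.72, SE 0.26). Just outside stood Ppp1r36 (1.68, SE 0.30), Il31ra (1.75, SE 0.31) and Magi1 (1.41, SE 0.25).

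The level on HEB knockout arrays was no part of the choice, although their spread entered the adjusted p, and these arrays were used to ask whether the higher signal was shared with loss of HEB. In the HEB knockout against WT contrast, which shares the WT arrays with the choice, none of the 6 passed (limma, adjusted p = 1 for each), as for 0% of all genes tested. In that contrast 312 of the 11957 genes had an unadjusted p under 0.05. The log2 differences were 1.01 (95% interval 0.32 to 1.70) for Col19a1, 0.95 (0.07 to 1.84) for Nrp1 and 0.82 (0.14 to 1.495) for Muc13. They were 0.61 (-0.10 to 1.31) for Fxyd1, 0.58 (-0.33 to 1.49) for Mtmr9 and 0.45 (-0.50 to 1.39) for Auts2. All 6 were positive, against a median of 0.086 over all genes. The choice favoured low WT values, which this contrast reuses, so it made a positive difference more likely. That of Mtmr9 turned to -0.014 without WT replicate 1. Both HEB knockout arrays lay above both WT arrays for 4 of the 6, where 23.4% of all tested genes showed this. The share among genes chosen in the same way was not counted.

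In the E2A knockout against HEB knockout contrast, which shares the E2A knockout arrays with the choice, Mtmr9 rose. Its log2 difference was 2.51 (SE 0.35, 5.71-fold, limma adjusted p = 0.04595), with 4 of 4 E2A knockout arrays above both HEB knockout arrays. Genes that rose here made up 0.0167% of those tested, 2 against 12 that fell, and the other that rose was Tcf12. After cyclic loess the split was 3 that rose and 7 that fell. Auts2 differed by 2.22 (SE 0.36, adjusted p = 0.0780 by limma) and Nrp1 by 1.79 (SE 0.34, adjusted p = 0.0893 by limma), neither past the threshold. Fxyd1 differed by 1.21 (95% interval 0.60 to 1.82), Col19a1 by 1.002 (0.41 to 1.60) and Muc13 by 0.90 (0.31 to 1.48), with adjusted p of 0.1223 to 0.1821 (limma). Every E2A knockout array lay above both HEB knockout arrays for all 6 genes, against 7.82% of all genes tested. The share was 44.4% among the 1193 tested genes that, like the 6, had every E2A knockout array above both WT arrays. Without either HEB knockout array the call of Mtmr9 was lost, at an adjusted p of 0.4198 without HEB_KO replicate 1 and 0.3067 without HEB_KO replicate 2 (limma). It was lost as well when any single E2A knockout array was left out, at an adjusted p of 0.0601 to 0.1111 (limma).

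At the brightest probe sets the order of the means was the same for all 6 genes, E2A knockout highest, then HEB knockout, then WT. Among the 1193 tested genes with every E2A knockout array above both WT arrays, 69.1% had the HEB knockout mean in between. Of the same 1193 genes, 44.4% had every E2A knockout array above both HEB knockout arrays and 9.81% had both HEB knockout arrays between the other genotypes without overlap. Nrp1, Col19a1, Fxyd1 and Muc13 met that last condition. Since the spread of the HEB knockout arrays entered the choice, these counts are a description. Neighbouring genotypes in the order that were not apart were HEB knockout and WT for Mtmr9 and Auts2.

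The other probe sets were read to see how far the higher signal holds across the probe sets of each gene. Their place on the transcript was not examined. The E2A knockout mean exceeded the WT mean at all 18 probe sets, by 0.35 to 3.09 on the log2 scale. At 8 of the 12 that are not the brightest of their gene every E2A knockout array lay above both WT arrays. Of all tested genes 9.98% showed this at their brightest probe set, and shares over all probe sets were not counted. The dimmer probe sets read the same arrays that chose the genes, so these counts are a description. The place of HEB knockout was less steady, with its mean above the WT mean at 13 of the 18 and below it at, among others, Mtmr9 probe set 1452254_at (-0.21) and Nrp1 probe set 1448943_at (-0.77). All 3 probe sets of Mtmr9 separated E2A knockout from WT. Its probe set 1455058_at read 9.44, 8.65, 9.53 and 9.84 on the E2A knockout arrays, 7.29 and 6.89 on HEB knockout and 5.62 and 7.45 on WT, and 1452254_at differed by 1.94 between E2A knockout and WT. Auts2 had a second bright probe set, 1438680_at, at 7.33, 7.37, 6.41 and 7.46 on the E2A knockout arrays, 5.14 and 4.98 on HEB knockout and 4.83 and 4.49 on WT. The other 3 of Auts2 were dimmer and differed by 0.81, 1.43 and 0.44, the last of them below the array's median on all 8 arrays.

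Nrp1, Col19a1 and Muc13 were less even between probe sets. At Nrp1 probe set 1448943_at, E2A knockout replicate 3 read 4.88 while the other E2A knockout arrays read 6.62, 7.03 and 7.28, and the WT arrays read 5.79 and 5.06. The same array was also the lowest of its genotype at 1457198_at (3.45) and 1448944_at (3.73), although it read 7.50 at the brightest. The mean differences between E2A knockout and WT at these 3 probe sets were 1.03, 0.89 and 1.15. Col19a1 at 1456953_at read 5.76, 6.22, 3.88 and 5.60 on the E2A knockout arrays, 5.54 and 5.38 on HEB knockout and 3.90 and 5.44 on WT, so that the genotypes overlapped, again with E2A knockout replicate 3 lowest of its genotype. The third probe set of Col19a1, 1430676_at, differed by 0.35, and the second of Muc13, 1419386_at, by 0.78 with no overlap between E2A knockout and WT. Fxyd1 has a single probe set here.

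**Figure D2:**
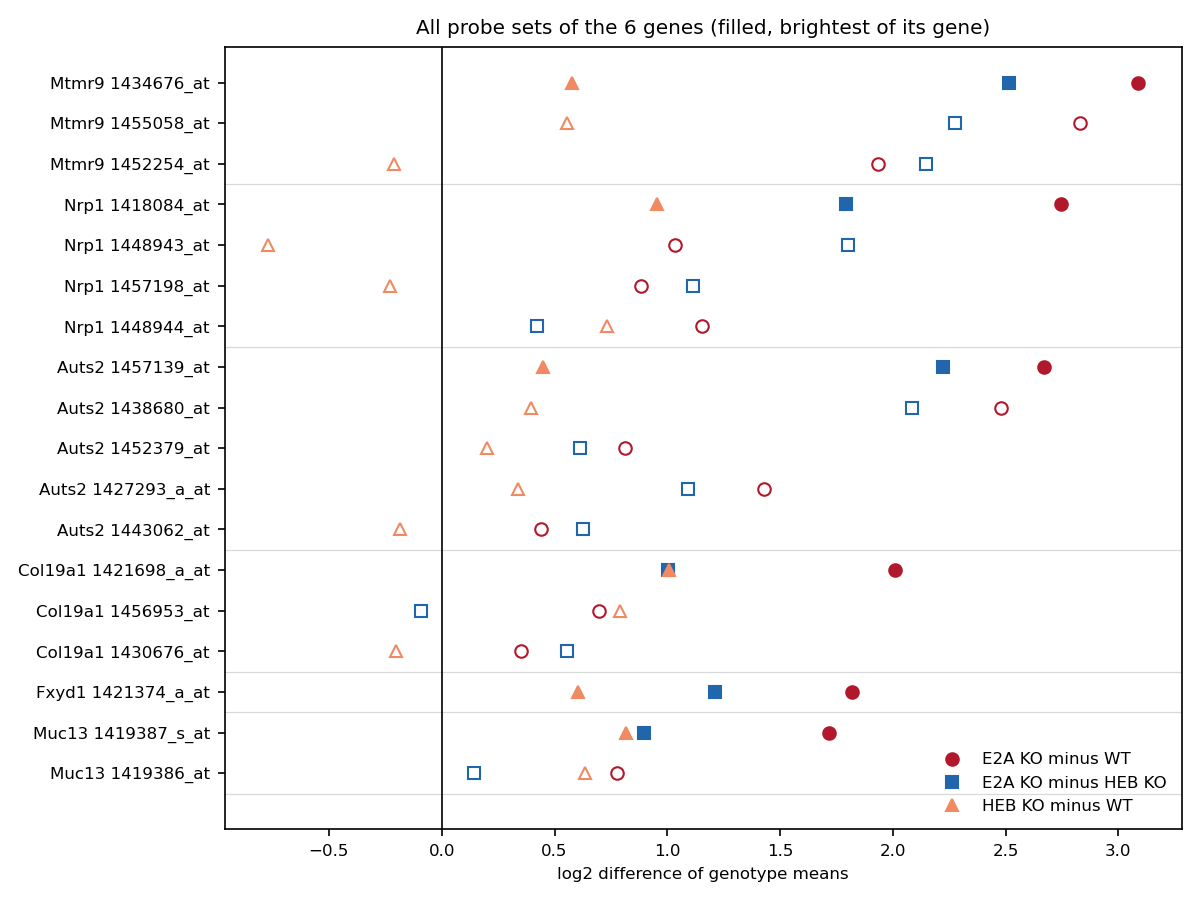
Log2 difference of genotype means (x axis) at each of the 18 probe sets of the 6 genes (rows) for E2A knockout minus WT (circles), E2A knockout minus HEB knockout (squares) and HEB knockout minus WT (triangles). Filled symbols mark the brightest probe set of its gene. All 18 circles lie right of 0, and those of Mtmr9 run from 1.94 to 3.09.

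Relatives and partners of each gene were read in the same contrast, from lists chosen by function. No gene of the 6 lists passed the test between E2A knockout and WT in either direction (limma). In all of them the member exceeded every tested relative. Since the members are all the genes called higher, no relative could be called higher, and the choice made the member's lead likely. Among 17 tested myotubularins and enzymes of the lipid PI3P the median log2 difference was -0.02, against -0.053 over all genes. Sbf1 (-0.96, SE 0.32) and Sbf2 (0.57, SE 0.20), which like Mtmr9 are myotubularins without activity, had the smallest p, and Mtmr6, a binding partner of MTMR9, differed by -0.25 (SE 0.22). Among 31 tested neuropilin, plexin, semaphorin and VEGF genes the median was 0.18. Sema3d, a secreted semaphorin, differed by -1.43 (SE 0.43) and Sema4b, a membrane semaphorin, by 0.65 (SE 0.21). Nrp2, the other neuropilin, read 4.27, 5.75, 4.65 and 4.58 on the E2A knockout arrays, 4.28 and 4.46 on HEB knockout and 3.96 and 3.98 on WT, a difference of 0.84 (SE 0.37) that did not pass.

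Among 21 tested genes of the AUTS2 family and of Polycomb complex PRC1 the median was -0.19. Pcgf5, a partner of AUTS2, differed by -0.68 (SE 0.21) and the Polycomb gene Bmi1 by -0.62 (SE 0.24). Fbrs and Fbrsl1, relatives of Auts2, differed by -0.13 (SE 0.20) and -0.24 (SE 0.27). Of 13 tested collagen genes 11 had a positive difference (median 0.26), with Col1a2 at 0.49 (SE 0.19) and Col18a1 at 0.47 (SE 0.22). Of the FXYD and sodium pump list 5 genes were tested (median -0.04), with the smallest p for Atp1b3 at -0.54 (SE 0.42) and Fxyd4 at 0.26 (SE 0.21). Fxyd5 differed by -0.07 (SE 0.26). Of 7 tested mucin and sialomucin genes (median -0.20), Muc5b differed by 0.76 (SE 0.31), Muc5ac by 0.35 (SE 0.24) and Cd34, a sialomucin of progenitors, by -0.26 (SE 0.27).

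**Figure D3:**
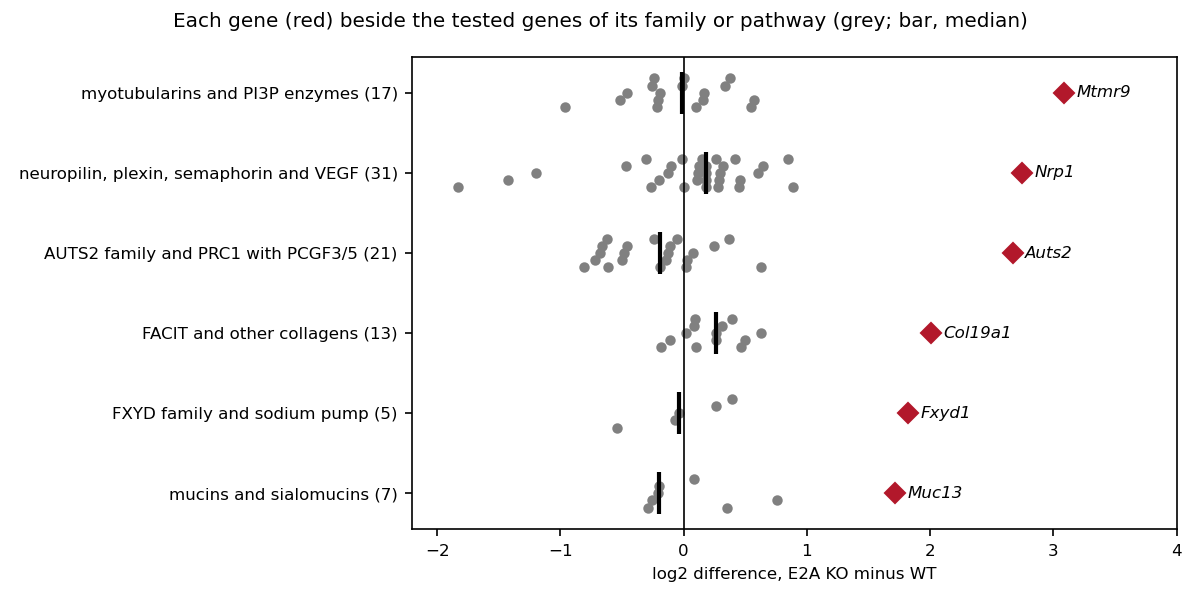
Log2 difference between E2A knockout and WT cells (x axis) for each of the 6 genes (red diamonds) and for the tested genes of its list (grey points, number in brackets, black bar for the median). Each diamond lies right of every grey point in its row, which the choice of the members made likely. The list medians run from -0.20 to 0.26.

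Likeness between profiles was measured as the root mean square difference of log2 values over the 8 arrays after taking off each gene's own mean, where a smaller value means more alike. Of the 15 pairs among the 6 genes, Muc13 and Col19a1 were the closest, at 0.23, against medians of 0.86 and 0.96 from these genes to all other tested genes. Magi1, a scaffold protein of cell junctions, lay close to both (0.22 from Muc13 and 0.29 from Col19a1), followed by Nhsl2 for Muc13 (0.26) and Socs2, a suppressor of cytokine signalling, for Col19a1 (0.33). Mtmr9 and Auts2 were each other's nearest gene, at 0.45. Next for Mtmr9 came Nrp1 (0.53) and the MHC class II gene H2-Aa (0.67), and next for Auts2 came Tmem178 (0.52) and Ifi30, a lysosomal thiol reductase of antigen processing (0.54). Nrp1 was closest to Fxyd1 (0.52), Mtmr9 (0.53) and Col19a1 (0.53), and Fxyd1 to Ppp1r36 (0.29), Tmem178 (0.33) and Farp1 (0.34). All these genes had a higher E2A knockout mean than WT mean, a direction the measure itself favours.

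The 6 genes lie on 6 different chromosomes (14 for Mtmr9, 8 for Nrp1, 5 for Auts2, 1 for Col19a1, 7 for Fxyd1 and 16 for Muc13). The nearest tested gene on each side was read for each, a rule added after the values were seen. Since the 6 members are all the genes called higher, none of these 12 neighbours could rise. Of the 12, 1 fell, Fam167a beside Mtmr9, where 47 of all tested genes (0.393%) fell. Beside Muc13, Heg1 differed by 1.03 (SE 0.55) and Itgb5, an integrin chain, by 0.52 (SE 0.28). Beside Col19a1, the collagen gene Col9a1 differed by 0.26 (SE 0.21).

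Markers of other cell types were summed as linear intensity over each list. The mature B and plasma cell list (7 of 9 genes on the array) summed to 1200 to 1898 on E2A knockout arrays, 921.8 and 953.5 on HEB knockout and 674.8 and 750.5 on WT arrays. Sdc1, the syndecan of plasma cells, made up 91.4% to 96.6% of that sum, and without it the sums overlapped (47.11 to 112.2 on E2A knockout, 56.54 and 65.55 on HEB knockout, 56.56 and 64.72 on WT). Ms4a1, Cr2, Fcer2a and Prdm1 of this list were below the array's median on all 8 arrays. The endothelial and stromal list (11 of 11) summed to 235.0 to 405.2 on E2A knockout, 743.3 and 865.9 on HEB knockout and 833.6 and 994.2 on WT arrays, with Tek, Emcn, Lepr, Cxcl12, Col1a1 and Col3a1 below the median on every array. Its brightest gene, Pdgfrb, a receptor of stromal cells, differed by -2.24 between E2A knockout and WT and did not pass. The other tested genes of that list, Kdr and Acta2, differed by 0.45 and 0.67, and without Pdgfrb the list summed to 132.1 to 173.3 on E2A knockout, 123.4 and 124.7 on HEB knockout and 117.7 and 123.3 on WT arrays. The stem cell list (8 of 10) summed to 242.5 to 379.5 on E2A knockout, 542.5 and 604.6 on HEB knockout and 627.8 and 652.4 on WT arrays, with Slamf1, Fgd5 and Hoxb5 below the median throughout, and all 4 of its tested genes had a negative difference that did not pass. Sums overlapped between E2A knockout and WT for granulocyte and monocyte genes (2859 to 5775 against 3498 and 3633), dendritic cell genes (2767 to 6447 against 5544 and 6636), erythroid and megakaryocyte genes (151.5 to 490.0 against 141.3 and 157.5) and T, NK and innate lymphoid genes (478.2 to 817.7 against 569.0 and 975.1). Without Nkg7 the T, NK and innate lymphoid sum was 159 to 202.7 on E2A knockout, 128.8 and 133 on HEB knockout and 125.5 and 133.6 on WT. Of its 5 tested genes 3 were higher and 2 lower, Zbtb16 the most (1.53, SE 0.35), and none passed. Without Irf8 the dendritic sum was 1211 to 2210 on E2A knockout, 2216 and 2345 on HEB knockout and 2944 and 2973 on WT. The granulocyte and erythroid sums overlapped between E2A knockout and WT without Mpo and Gata1 as well. On HEB knockout arrays the granulocyte and monocyte sum was 4867 and 6700, above both WT arrays. Without Mpo it was 1629 and 3628, against 1234 and 1665 on WT arrays. Of the marker genes other than the gate's, 1 passed the test between E2A knockout and WT. It was the dendritic list's Ccr9, a chemokine receptor, which fell by 5.28 (limma adjusted p = 0.003343). Spiked-in hybridization controls averaged, in log2 intensity, 11.52 to 12.62 (E2A knockout), 10.32 and 11.60 (HEB knockout) and 10.29 and 11.40 (WT). Every E2A knockout array thus lay above both WT arrays in control signal too. Genotype and control signal cannot be fully told apart in that contrast. The part of cell makeup in the members' values was not tested. With the control signal as a covariate the members' log2 differences between E2A knockout and WT were 3.38 for Mtmr9 and 3.28 for Auts2. They were 2.42 for Nrp1, 2.12 for Fxyd1, 1.92 for Col19a1 and 1.41 for Muc13. No member passed in that fit, with SE of 0.35 to 0.506 and adjusted p of 0.223 to 0.5292 (limma).

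Under other processing the differences between E2A knockout and WT changed in size, and calls were lost in several alternatives. Between E2A knockout and WT each of the 6 genes stayed positive under all 20 alternatives. The choice largely fixed this sign, since every E2A knockout array lay above both WT arrays at the brightest probe sets. Values ran from 2.50 to 3.68 for Mtmr9, 1.58 to 2.12 for Fxyd1 and 1.25 to 1.89 for Muc13. Averaging all probe sets of a gene gave the lowest value for Nrp1, Auts2, Col19a1 and Muc13, since the dimmer probe sets differed less. Nrp1 then differed by 1.45 (against 2.75 at the brightest), Auts2 by 1.57 (2.67) and Col19a1 by 1.02 (2.01). The calls of Nrp1 and Col19a1 were lost there.

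**Figure D4:**
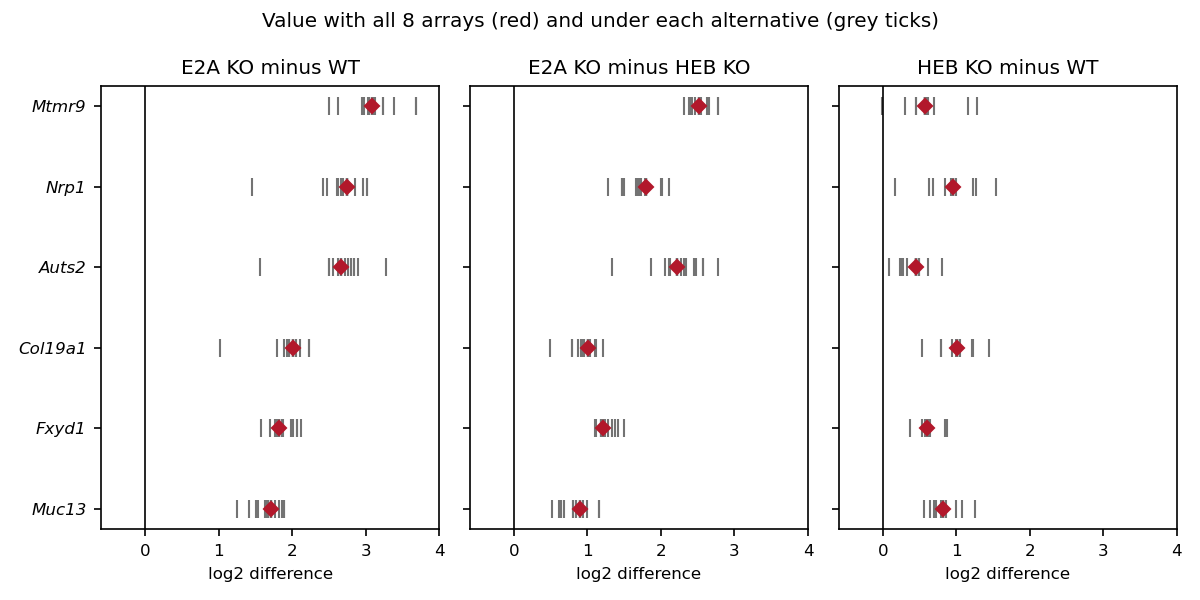
Log2 difference (x axis) of each gene in 3 contrasts, with all 8 arrays (red diamonds) and under each of 20 alternatives in processing or samples (grey ticks). The values between E2A knockout and WT and between E2A knockout and HEB knockout lie right of 0 throughout, while those between HEB knockout and WT reach -0.014 for Mtmr9.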

How the data were processed

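The authors deposited 1 linear intensity per probe set and array, made with RMA per the submitters' processing notes, of a version not given in the sources used here. No further normalization was applied before taking log2. That the scale is linear was read from the values. Of 45101 probe sets, 34945 named 1 gene, 932 several, 9160 none and 64 were controls. Each of 18193 genes was represented by its brightest probe set and tested if that exceeded the array's median on at least 2 arrays. limma 3.58.1 (R 4.3.3) fitted a mean per genotype to all 8 arrays (5 residual degrees of freedom), with two-sided tests and Benjamini-Hochberg adjustment over 11957 genes, and "rose" and "fell" mean an adjusted p under 0.05. The code was tested on simulated data. The number of arrays limits precision (median SE over genes 0.28 where 4 arrays met 2, and 0.323 where 2 met 2). No 2 arrays were identical. The labels do not tie each array to a separate sort, so p-values measure the spread between these arrays.

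The members and lists were chosen with earlier results of these data known. Named were the members, the targeted genes, the 3 nearest profiles of each member, of each pathway list the 2 genes of smallest p (no gene of these lists was called), and the 3 genes just outside the threshold. Further relatives, neighbours and markers were chosen after their values were seen. Alternatives were other filters, scalings, probe set rules, variance models, samples, a replicate block, a control covariate and leaving out each array. Leaving out WT 2 with HEB_KO 1 and a crossed pairing were chosen after seeing the data.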

Additional observations from a re-analysis of the deposited data

Results flagged for a closer look

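Mtmr9 differed between E2A knockout and HEB knockout cells by more than the spread between arrays, by 2.51 on the log2 scale, so its differences from WT were unequal (3.09 for E2A knockout and 0.58 for HEB knockout). The E2A knockout arrays also took part in the choice of Mtmr9, so this is no independent test. Of 20 alternatives 9 kept the call and 11 lost it.

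At 2 of the 18 probe sets 1 E2A knockout array stood apart from the other 3 of its genotype, and chance sets apart about 1 in 20 groups. Both were E2A knockout replicate 3. It read 6.41 at Auts2 probe set 1438680_at, below the 7.33 to 7.46 of the other arrays and above both WT arrays, and 4.49 at Col19a1 probe set 1430676_at, above the 3.27 to 3.48 of the other arrays.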

How the results depend on the processing

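With all arrays 6 genes were higher in E2A knockout than in WT cells and 2 than in HEB knockout cells. The first count was 0 at an adjusted p under 0.01, 0 with the control covariate, 0 without WT 2 and HEB_KO 1, 10 after cyclic loess, 14 with trend and robust, 21 with array weights, and 0 to 22 with 1 array left out. All 6 stayed among the calls after loess, with trend and robust, with array weights and without E2A_KO replicate 3, and 4 of them with only the compared genotypes, where Fxyd1 and Muc13 were lost. Of the counts with 1 array left out the lowest came without WT replicate 1, and the highest without E2A_KO replicate 3. It was 1 without the other WT array and 2 when either E2A_KO replicate 1 or E2A_KO replicate 2 was dropped. The second count was 0 at an adjusted p under 0.01, with every probe set, with the control covariate, with a replicate block, and without WT 2 and HEB_KO 1. It was 1 without a filter, 1 with only the compared genotypes, 4 with trend and robust, 9 with array weights, and 0 to 4 with 1 array left out. The replicate block gave 4 genes for the first, of which Nrp1 alone was one of the 6. The numbers pair nothing the labels name, and the deviations of same-numbered arrays correlated over genes at -0.28 between HEB knockout and WT, -0.16 between E2A knockout and WT and 0.08 between the knockouts. With crossed numbers, as in the other settings, no gene was higher in HEB knockout than in WT cells. Of 120 values of the members between E2A knockout and WT, 72 kept their side of the threshold, 48 lost it and 0 changed sign. The choice of the genes largely fixed that sign, and the calls in this contrast restate the choice. Between HEB knockout and WT 1 of 120 changed sign, Mtmr9, whose value ran from -0.014 (without WT replicate 1) to 1.165 (without WT replicate 2) as single arrays were left out. Cyclic loess moved the median of all genes between the knockouts to -0.028, against -0.163. The cause of these changes was not tested.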

Other observations

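The nearest tested gene before Mtmr9, Fam167a, ran the other way, and was singled out after its values were seen. Fam167a read 4.48, 3.65, 3.88 and 4.19 (log2 intensity) on the E2A knockout arrays, 6.22 and 6.01 on the HEB knockout arrays and 6.01 and 6.98 on the WT arrays, at its single probe set. Every E2A knockout array lay below all others. It fell by 2.45 between E2A knockout and WT (SE 0.33, limma adjusted p = 0.02285) and differed by -2.06 between E2A and HEB knockout (SE 0.33, limma adjusted p = 0.0732). In the RefSeq order 2 further genes, not among those tested, lie between Fam167a and Mtmr9. Xkr6, the nearest tested gene after Mtmr9, differed by 0.28 (SE 0.22). Heg1, beside Muc13, read 5.74, 7.46, 5.19 and 5.47 on the E2A knockout arrays, 3.82 and 3.77 on HEB knockout and 5.14 and 4.74 on WT, so HEB knockout was lowest there, unlike at Muc13.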
